A study of Homo sapiens with 6 samples.

Results

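The genes that copy DNA, and those that make its nucleotides, were followed in MDA-MB-231 cells after knockdown of the long non-coding RNA MIR100HG. The set was 56 genes chosen by function, and all 56 were found by symbol among the 27745 genes of the count table. MDA-MB-231 is an established line from a breast cancer that lacks oestrogen receptor, progesterone receptor and HER2. RNA-seq covered 3 groups with 2 replicates each, 6 samples in all: cells infected with lentivirus carrying sh-TRC, the control, or sh-MIR100HG-1 or sh-MIR100HG-2, a pair of shRNAs against the same RNA. Every group, control included, carried a lentivirus made in a human embryonic kidney packaging line, and RNA was taken from the infected culture as a whole. The study calls the knockdown replicates biological. The labels do not say how replicates were made in any group, so p-values measure the spread between these samples.

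To copy its genome once per cycle, a cell loads the MCM helicase onto origins in G1, a step called licensing that ORC, CDC6 and CDT1 carry out and geminin blocks after S phase begins. In S phase the kinase CDC7 with its activator DBF4 helps to attach CDC45 and the GINS complex to MCM, and this CMG helicase unwinds the DNA. Polymerase alpha with primase starts each strand, polymerases delta and epsilon extend it on the PCNA ring that RFC loads, and FEN1 and ligase join the fragments. Ribonucleotide reductase, thymidylate synthase and thymidine kinase supply deoxynucleotides. Many of these genes are textbook targets of the E2F factors, which the RB proteins hold back in G1. Proliferating cells express them broadly.

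Total counts per sample ranged from 43804736 to 64588388. The 6 samples had the markers of the line: VIM lay between 1607 and 2095 CPM (counts scaled to a common library size with TMM normalization, the level used throughout), CD44 between 538 and 957 and EGFR between 403 and 507, while PGR did not exceed 0.0236 and CDH1 7.05 and ESR1 2.79. Markers of leukocytes, fibroblasts and packaging cells summed to between 18.0 and 78.4 CPM, nearly all of it COL1A1, which had 20.2 and 17.2 CPM in the controls and 46.5, 45.5, 62.6 and 78.0 after knockdown. PTPRC, DCN, NEFL and NEFM did not exceed 0.689, 0.204, 0.0472 and 2.65 CPM, and PECAM1 was not analysed here. The part of these cells in the results below was not tested.

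MIR100HG itself had 41.9 and 58.5 CPM in the controls, 15.2 and 13.2 with sh-MIR100HG-1 and 16.6 and 10.4 with sh-MIR100HG-2. Its level was lower in each of the 4 knockdown samples than in either control, and an exact permutation test (two-sided) gave p = 0.133, which is the smallest it can give for 4 samples against 2.

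Promoter sequences show what many of these genes share apart from their function. RefSeq promoters of GRCh38.p14, from 250 bases before to 50 bases after a start site, were given for 50 of the 56 genes (not for MCM4, MCM5, RPA2, RPA3, POLD3 or GINS4), with 68 start sites among them. The E2F-type words TTTCCCGC, TTTCGCGC, TTTGCCGC and TTTGGCGC were searched on both strands. At least 1 of them was in 26 of the 68 promoters (38.2%), against 3.31% of all 35116 promoters of the same length, and 25 of the 50 genes had one. The lines below show a window of 30 bases around a word in some of the genes named below. Each is read 5′ to 3′ in the direction of the gene, with the build above, the strand of the gene and the words in capitals.
GINS1 (chr20:25407667-25407696, + strand): agctttgttcgGCGCCAAAgcgcggagcgg
GINS2 (chr16:85688967-85688996, - strand): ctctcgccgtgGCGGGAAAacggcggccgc
GINS3 (chr16:58392455-58392484, + strand): cgtccccgggcGCGGGAAAcgagtttcaat
CDC6 (chr17:40287875-40287904, + strand): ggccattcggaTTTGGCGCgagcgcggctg
GMNN (chr6:24775322-24775351, + strand): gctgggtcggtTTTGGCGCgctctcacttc
CDC7 (chr1:91501033-91501062, + strand): gtgcagttcctTTTCCCGCcccccttcgga
MCM2 (chr3:127598404-127598433, + strand): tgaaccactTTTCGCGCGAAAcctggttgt
MCM6 (chr2:135876575-135876604, - strand): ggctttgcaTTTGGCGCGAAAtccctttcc
POLE (chr12:132687342-132687371, - strand): tgggtgggagcGCGCCAAAtttctcccctg
POLE2 (chr14:49688201-49688230, - strand): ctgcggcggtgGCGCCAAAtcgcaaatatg

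In GINS1, GINS2, GINS3, POLE and POLE2 the word stood on the opposite strand, so its reverse complement is in capitals. In MCM2 and MCM6 words on both strands overlapped each other. The CCAAT box, CCAAT, was in 37 of the 68 promoters (54.4%, against 34.6% of all promoters), and the CHR word TTTGAA of late cell cycle genes was in 3 (4.41%, against 15.2%). The median log2 fold change (log2FC) after knockdown was 0.01 over the genes with an E2F-type word and 0.12 over those without. Genes that lay higher after knockdown (CDC6, GMNN) and lower (GINS1, GINS3, CDC7) are both among those with a word. FEN1, also higher, had a promoter given but no such word in it. A match of letters is a description and not a binding site.

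The set was well expressed in control cells: 48 of the 56 genes lay above the median control level of all genes tested, 21.1 CPM. Per kb of exon, which allows genes to be compared, the mean control level spanned 55.5-fold, from 1.96 CPM per kb for GINS3 to 109 for thymidine kinase TK1. MCM7 (75.4), the sliding clamp PCNA (73.1), MCM3 (55.5) and the flap endonuclease FEN1 (46.3) followed TK1. Subunits of 1 complex differed in mRNA level. Within MCM2 to MCM7 the highest control level, that of MCM7, was 5.33 times the lowest, that of MCM5, and within GINS1 to GINS4 the ratio was 5.17. POLD2 (45.1 CPM per kb) was 5.61 times POLD3 in polymerase delta, while POLE and POLE2 of polymerase epsilon had 5.89 and 6.47. These lengths sum all annotated exons, so a gene with long exons that are seldom used has its level understated.

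**Figure D1:**
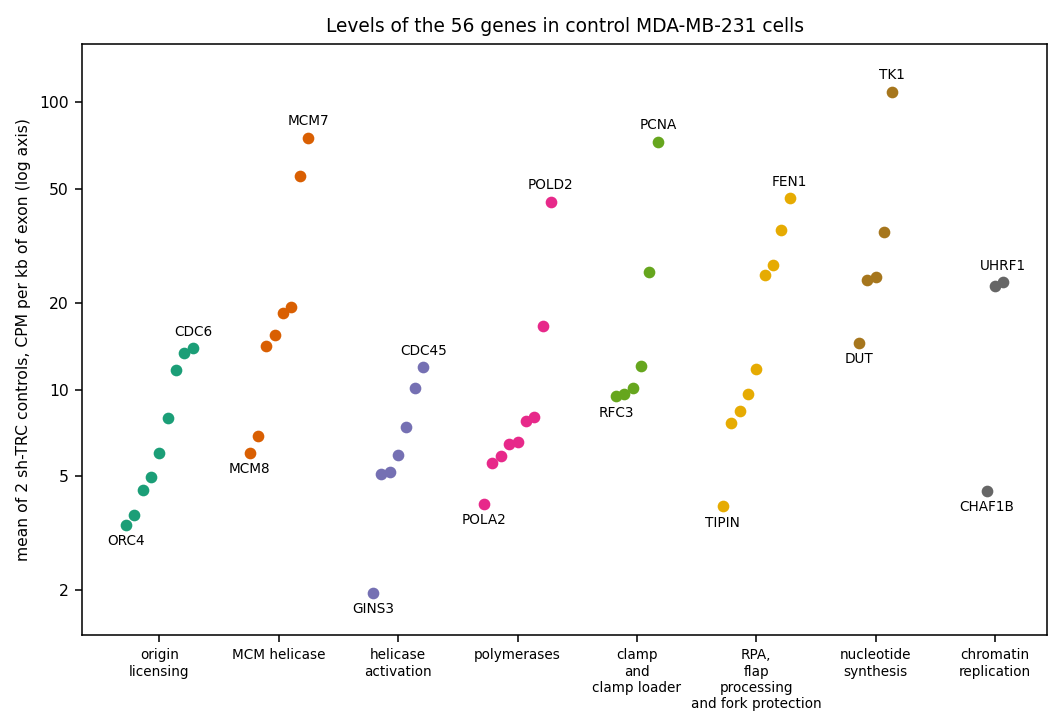
Mean level of each of the 56 genes in the 2 sh-TRC controls, in CPM per kb of exon on a log axis, arranged by role; the lowest and highest gene of each role is named. TK1, at 109 CPM per kb, is highest and GINS3, at 1.96, lowest.

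The main comparison asked how the replication genes changed when MIR100HG was reduced, taking the mean of both shRNA groups against the control. Most of the set differed little. The log2FC of 51 of the 56 genes lay within 0.5 of 0 (91.1%, against 78.4% of all genes tested), 36 were above 0 and 20 below, and the median was 0.09 against -0.04 over all genes. GINS1 and GINS4, subunits of the GINS complex, were lower, with log2FC values of -1.06 and -1.11, and CDC6, GMNN and FEN1, which act in licensing and in joining fragments, were higher, at 0.61, 0.59 and 0.49. With edgeR's quasi-likelihood test adjusted by the Benjamini-Hochberg method over 15372 genes, no gene of the set and no gene at all passed an adjusted p of 0.05 (0% of genes tested), so none is called changed by that test. At an unadjusted p under 0.05, 3 of the 56 were higher (5.36%, against 3.23% of all genes) and 2 lower (3.57%, against 4.44%), shares near those of all genes. With edgeR's likelihood ratio test, with DESeq2 and without the filter on low counts, 2 of the 56 were called, GINS1 and GINS4 each time. Each of these alternatives also called genes outside the set, and the totals over all genes are given below with the processing. Cells in another phase of the cycle and RNA per cell cannot be told apart in bulk samples.

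**Figure D2:**
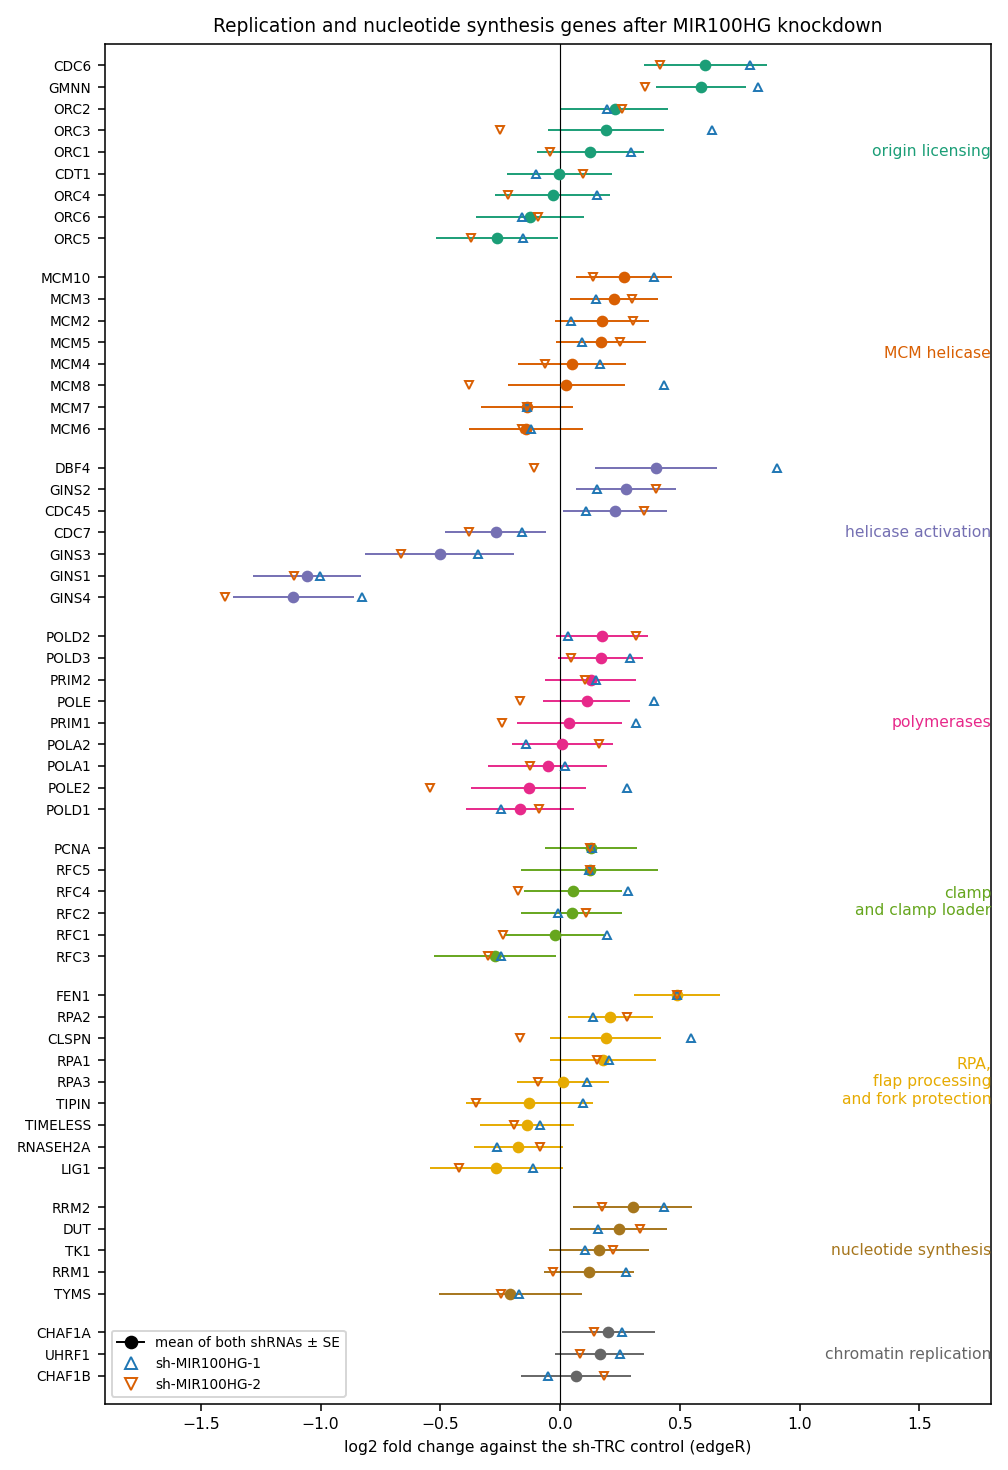
Log2FC of the 56 genes against the sh-TRC control, grouped by role; filled points give the mean of both shRNAs with its SE, and open triangles give each shRNA. GINS4 (-1.11) and GINS1 (-1.06) lie furthest below 0 and CDC6 (0.61) and GMNN (0.59) furthest above.

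The helicase activation genes held the widest spread of any role, from -1.11 for GINS4 to 0.40 for DBF4, with a median of -0.27 over 7 genes. GINS is a ring of GINS1 (PSF1), GINS2 (PSF2), GINS3 (PSF3) and GINS4 (SLD5) that holds CDC45 to the MCM helicase. GINS1 had 42.5 and 40.1 CPM in the controls, 22.6 and 18.6 with sh-MIR100HG-1 and 23.0 and 15.2 with sh-MIR100HG-2. The highest knockdown sample was thus well below the lower control. Its log2FC was -1.06 (SE 0.23, 95% interval -1.57 to -0.54), with an adjusted p of 0.434 in edgeR's test (0.00141 unadjusted), which placed it 50th of all genes. The gene lies on chromosome 20 of GRCh37 from 25388363 to 25433264.

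GINS4 behaved alike in the samples. It had 36.2 and 28.8 CPM in the controls, 14.8 and 21.9 with sh-MIR100HG-1 and 10.1 and 14.4 with sh-MIR100HG-2, again with no overlap between knockdown and control. Its log2FC was -1.11 (SE 0.25, 95% interval -1.69 to -0.54), with an adjusted p of 0.444 in edgeR's test (0.00202 unadjusted). With the alternatives that called both genes, the adjusted p was 0.0190 for GINS1 and 0.0272 for GINS4 (likelihood ratio test), 0.0107 and 0.0307 (DESeq2) and 0.00351 and 0.00239 (edgeR without the filter). Over all alternatives the log2FC stayed between -1.22 and -0.93 for GINS1 and between -1.27 and -0.94 for GINS4. Leaving out any of the 6 samples kept both at an unadjusted p under 0.05 in edgeR's test, with the highest at 0.0134 and 0.0265. Neither gene shared exon bases with another annotated gene.

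The other 2 GINS subunits did not move with them to the same extent. GINS3 had 9.83 and 10.2 CPM in the controls, 6.01 and 9.80 with sh-MIR100HG-1 and 4.70 and 7.95 with sh-MIR100HG-2, so all knockdown samples were lower, but 1 of the sh-MIR100HG-1 samples was nearly level with the controls. GINS2, by contrast, had 15.5 and 18.3 in the controls against 20.01, 17.5, 22.1 and 22.5 after knockdown. Their log2FC values were -0.50 (SE 0.31) and 0.28 (SE 0.21). The ratio of GINS1 to GINS2 in CPM per kb does not depend on the scaling of a library: it was 2.20 and 1.75 in the controls, 0.905 and 0.852 with sh-MIR100HG-1 and 0.835 and 0.542 with sh-MIR100HG-2. In mean CPM per kb, GINS1 was the highest of the 4 GINS mRNAs in the controls and GINS2 the highest in both knockdown groups. With sh-MIR100HG-1 that order rests on the exon lengths, since mean CPM was 20.6 for GINS1 and 18.8 for GINS2. With sh-MIR100HG-2 mean CPM was 19.1 and 22.3. The ratio of GINS1 to GINS2 was chosen after the values were seen and was not tested.

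The kinase CDC7, which phosphorylates MCM at origins, had 17.2 and 19.0 CPM in the controls and between 12.4 and 16.6 in the 4 knockdown samples, all lower, with a log2FC of -0.27 (SE 0.21). Its activator DBF4 had 42.6 and 25.6 CPM in the controls, 54.8 and 73.0 with sh-MIR100HG-1 and 30.9 and 32.4 with sh-MIR100HG-2. Only the sh-MIR100HG-1 samples lay outside the controls. CDC45 had 32.7 and 35.3 CPM in the controls and 34.4, 39.0, 35.3 and 51.5 after knockdown, which overlap.

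**Figure D3:**
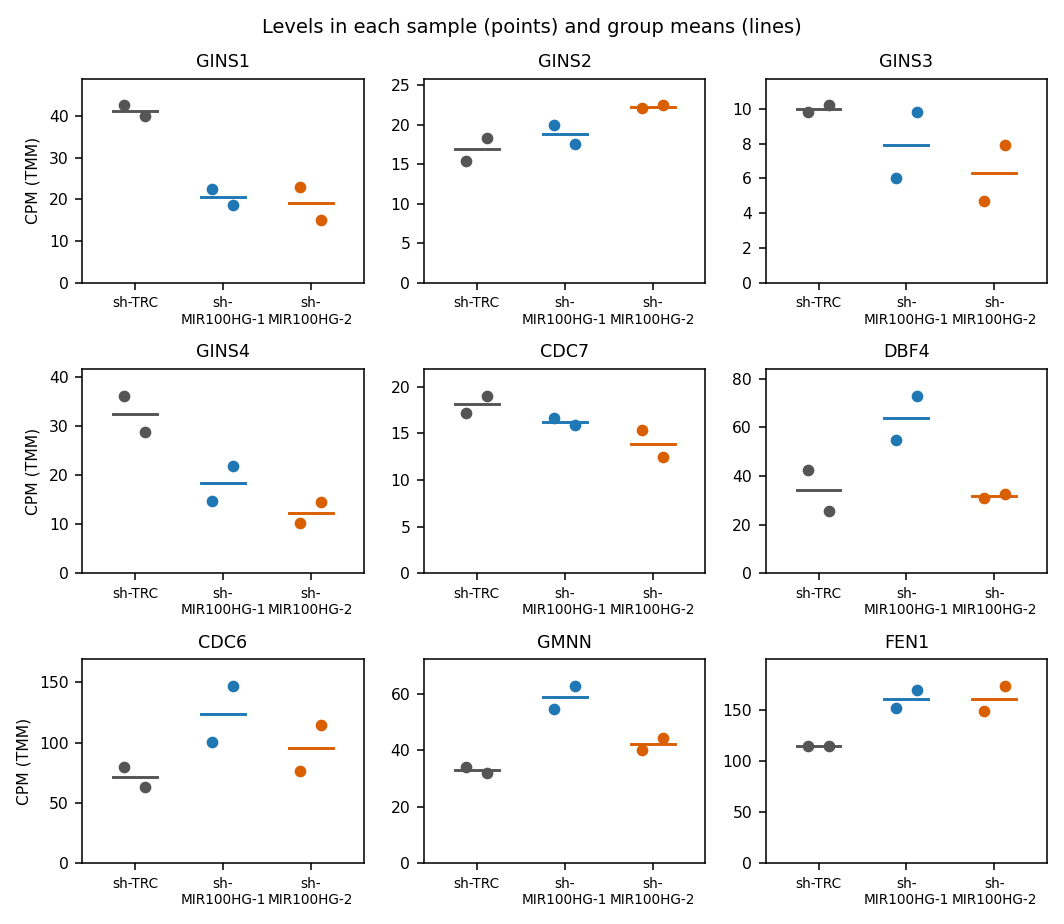
CPM of 9 genes in each of the 6 samples (points), with the mean of each group of 2 (lines); each panel starts at 0. GINS1 and GINS4 are lower in every knockdown sample than in either control, GMNN and FEN1 are higher, and DBF4 is higher with sh-MIR100HG-1 only.

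Among the 9 origin licensing genes the loader CDC6 and the inhibitor geminin (GMNN) stood above the rest, and the median log2FC was 0.13. GMNN had 34.2 and 32.0 CPM in the controls, 54.6 and 62.7 with sh-MIR100HG-1 and 40.2 and 44.5 with sh-MIR100HG-2. Every knockdown sample was above both controls, and the sh-MIR100HG-1 samples were highest. Its log2FC was 0.59 (SE 0.19, 95% interval 0.16 to 1.02), with an adjusted p of 0.550 in edgeR's test (0.0131 unadjusted). CDC6 had 79.9 and 63.0 CPM in the controls, 101 and 147 with sh-MIR100HG-1 and 76.2 and 115 with sh-MIR100HG-2. Of the sh-MIR100HG-2 samples 1 fell between the controls. Its log2FC was 0.61 (SE 0.26), with an adjusted p of 0.642 in edgeR's test (0.0442 unadjusted).

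CDT1, the partner of CDC6 that geminin binds, did not follow them. It had 32.4 and 45.6 CPM in the controls and between 35.6 and 47.3 after knockdown, with a log2FC of -0.00 (95% interval -0.51 to 0.50). The ratio of CDT1 to GMNN in CPM per kb was 0.704 and 1.06 in the controls, 0.504 and 0.422 with sh-MIR100HG-1 and 0.667 and 0.790 with sh-MIR100HG-2. The sh-MIR100HG-1 ratios were below both controls, and 1 of the sh-MIR100HG-2 ratios lay between them. The 6 ORC genes, subunits of the complex that marks origins, ranged from -0.26 (ORC5) to 0.23 (ORC2), and the knockdown samples of each overlapped the controls.

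The log2FC of the MCM helicase genes ran from -0.14 (MCM6) to 0.27 (MCM10) over 8 genes, with a median of 0.11, and none reached an unadjusted p under 0.05. MCM2 had 78.7 and 102 CPM in the controls and between 87.3 and 120 after knockdown (log2FC 0.17, 95% interval -0.28 to 0.63). MCM10, which helps to activate the helicase, had 38.3 and 37.04 CPM in the controls and 42.6, 56.5, 39.6 and 43.3 after knockdown. MCM3 had 185 and 220 CPM in the controls and 225, 225, 224 and 274 after knockdown. These 2 genes lay above both controls in all 4 samples, MCM3 by a margin smaller than the difference between the controls.

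In all, 5 of the 56 genes lay above both controls in every knockdown sample (GMNN, MCM3, MCM10, RPA2 and FEN1, 8.93% of the set against 8.4% of all genes tested). Below both controls were 4 (GINS1, GINS3, GINS4 and CDC7, 7.14% against 9.08%). The shares are close to those of all genes. The 4 lower genes are of the helicase activation role, in which 3 genes had a log2FC above 0. Of the 4, GINS3 and CDC7 had unadjusted p of 0.144 and 0.239 in edgeR's test. Placement by role was not tested. MCM3 and RPA2 are named here after their values were seen.

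No polymerase gene reached an unadjusted p under 0.05 for the knockdown. The highest of the 9 was POLD2 (0.17), a regulatory subunit of polymerase delta, and the lowest was POLD1 (-0.17), its catalytic subunit, whose exons share 8.77% of their bases with another gene on the same strand. In the clamp and clamp loader genes PCNA had 102 and 113 CPM in the controls and 113, 123, 101 and 133 after knockdown. The log2FC was 0.13 (95% interval -0.31 to 0.57). RFC3, a loader subunit, was the lowest of these 6 genes at -0.27 (SE 0.26).

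FEN1 was the outlying gene among those of RPA, flap processing and fork protection. It cuts the 5′ flaps of Okazaki fragments before ligation. FEN1 had 114 and 115 CPM in the controls, 152 and 169 with sh-MIR100HG-1 and 149 and 174 with sh-MIR100HG-2. The controls were nearly equal, and all 4 knockdown samples lay clearly above them. Its log2FC was 0.49 (SE 0.18, 95% interval 0.08 to 0.90), with an adjusted p of 0.606 in edgeR's test (0.0256 unadjusted). Its exons share 6.70% of their bases with TMEM258 on the opposite strand, and the strand setting of the counting is not stated.

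DNA ligase LIG1, which seals the nicks that FEN1 leaves, had 47.3 and 53.7 CPM in the controls but 61.0 and 32.5 with sh-MIR100HG-1 and 43.96 and 31.6 with sh-MIR100HG-2. The sh-MIR100HG-1 samples fell on either side of the controls and the sh-MIR100HG-2 samples below both, and the log2FC was -0.27 (SE 0.28). RPA2, a subunit of the complex that coats single-stranded DNA, had 49.9 and 51.7 CPM in the controls and between 53.0 and 63.1 after knockdown, a log2FC of 0.21 (SE 0.18).

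No nucleotide synthesis gene of the set reached that p either, and 4 of the 5 had a log2FC above 0. RRM2, the S-phase subunit of ribonucleotide reductase, had 118 and 127 CPM in the controls, 141 and 190 with sh-MIR100HG-1 and 104 and 172 with sh-MIR100HG-2. Of the knockdown samples 1 was below both controls and 3 above (log2FC 0.30, 95% interval -0.26 to 0.87). Thymidylate synthase TYMS, which makes dTMP, had 50.1 and 68.9 CPM in the controls, 68.2 and 37.5 with sh-MIR100HG-1 and 61.2 and 39.3 with sh-MIR100HG-2. In each shRNA group 1 sample lay between the controls and the other below both (log2FC -0.21, 95% interval -0.89 to 0.47). TYMS shares 18.8% of its exon bases with ENOSF1 on the opposite strand. TK1, the thymidine salvage kinase, had 185 and 220 CPM in the controls and between 194 and 278 after knockdown (log2FC 0.16, 95% interval -0.32 to 0.64). The chromatin genes ranged from 0.07 for CHAF1B to 0.20 for CHAF1A, subunits of the CAF-1 histone chaperone.

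For 51 of the 56 genes the 95% interval of the log2FC lay wholly between -1 and 1. The exceptions were CDC6, GMNN, GINS1, GINS3 and GINS4. Leaving out samples mattered for the smaller differences. Without sh-TRC replicate 2 the genes under an unadjusted p of 0.05 were 2 in place of 5 (GINS1 and GINS4), and without sh-MIR100HG-1 replicate 2 they were 3 (these and GMNN).

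**Figure D4:**
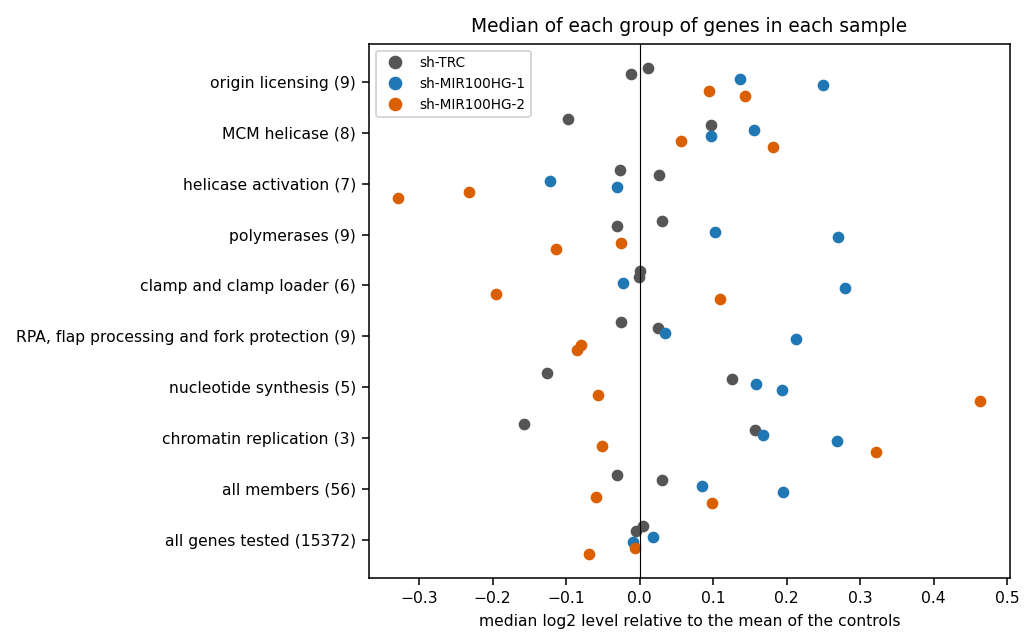
Median log2 level of each role in each of the 6 samples, relative to the mean of the controls, with the number of genes in parentheses. Helicase activation medians run from -0.33 to -0.23 with sh-MIR100HG-2 and from -0.12 to -0.03 with sh-MIR100HG-1; the medians over all genes tested lie between -0.07 and 0.02.

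Each shRNA was then set against the same 2 controls, which the comparisons share. With sh-MIR100HG-1 no gene passed the adjusted p (0% of genes tested), nor did any of the set with DESeq2 or the likelihood ratio test. The median of the set was 0.14, against -0.00 over all genes. At an unadjusted p under 0.05, 4 genes were higher (7.14%, against 3.1%): DBF4 (log2FC 0.91, SE 0.29), GMNN (0.82, SE 0.21), CDC6 (0.79, SE 0.29) and FEN1 (0.49, SE 0.20). GINS1 (-1.002, SE 0.27) and GINS4 (-0.83, SE 0.30) were the 2 lower ones (3.57%, against 3.77%). With 1 sample left out at a time, the log2FC of GINS4 ranged from -1.14 to -0.57 and that of GINS1 from -1.15 to -0.88. DBF4 ranged from 0.58 to 1.32, CDC6 from 0.49 to 1.04, GMNN from 0.72 to 0.92 and FEN1 from 0.40 to 0.56. The adjusted p of each of the 6 was 0.714 (edgeR).

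With sh-MIR100HG-2 no gene passed either (0%), and the median of the set was -0.05, against -0.04 over all genes. FEN1 was the only higher gene at an unadjusted p under 0.05 (1.79%, against 3.71%), with a log2FC of 0.49 (SE 0.20). It was thus nearly equal with the 2 shRNAs. GINS4 (-1.40, SE 0.31) and GINS1 (-1.11, SE 0.27) were the lower ones (3.57%, against 5.15%), with adjusted p of 0.410 and 0.455 (edgeR). DESeq2 called both, at 0.0137 and 0.0301, and the likelihood ratio test called GINS4 at 0.0204. These tests also called genes outside the set, with totals given below. GMNN (0.35, SE 0.21), CDC6 (0.42, SE 0.29) and GINS2 (0.40, SE 0.24) followed FEN1 in p among the higher genes, and POLE2 (-0.54, SE 0.28) and GINS3 (-0.66, SE 0.37) followed among the lower.

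The direct comparison of sh-MIR100HG-2 with sh-MIR100HG-1 sets their levels side by side without those of the controls, which enter the fit only through normalization and the estimate of the spread, and asks whether the shRNAs acted alike on these genes. No gene passed the adjusted p (0% of genes tested). Of the set, neither DESeq2 nor the likelihood ratio test called any, and edgeR without the filter called 1, DBF4. All of these alternatives called genes outside the set, with totals given below. The set leaned lower with sh-MIR100HG-2: 37 genes were below 0 and 19 above, with a median of -0.11 against -0.01 over all genes. None was higher at an unadjusted p under 0.05 (0 of 56, against 3.34% of all genes) and 6 were lower (10.7%, against 6.12%). These were DBF4, the origin subunit ORC3, POLE2 and POLE of polymerase epsilon, MCM8, a helicase of homologous recombination, and CLSPN (claspin), which links the fork to the ATR checkpoint. For GINS1 and FEN1 the shRNAs differed by -0.11 (SE 0.27) and 0.00 (SE 0.20).

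DBF4 had the largest difference, at -1.01 (SE 0.29, adjusted p of 0.509 in edgeR's test, 0.00783 unadjusted). Its levels, given above, were 54.8 and 73.0 CPM against 30.9 and 32.4. ORC3 had 37.6 and 53.3 CPM with sh-MIR100HG-1 and 27.1 and 22.1 with sh-MIR100HG-2, while the controls had 34.0 and 24.6. POLE2 had 20.3 and 26.2 against 11.8 and 14.4, with controls at 22.1 and 16.1.

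In all 6 genes the shRNA groups did not overlap, which is no further support, because the p of this same comparison picked them. Choosing genes by this p also favours genes that are high with sh-MIR100HG-1, so their place against the controls is no further support. MCM8 had 61.4 and 64.0 CPM against 40.2 and 31.1, with controls at 58.0 and 34.9. CLSPN had 62.5 and 71.2 against 45.5 and 36.0, with controls at 55.3 and 36.2. POLE had 139 and 118 against 85.1 and 89.3, with controls at 104 and 91.8. The log2 differences were -0.89 (ORC3), -0.82 (POLE2), -0.81 (MCM8), -0.71 (CLSPN) and -0.56 (POLE). In the same fit, leaving out sh-MIR100HG-1 replicate 2 gave 0 of 56 genes under an unadjusted p of 0.05. Leaving out sh-MIR100HG-2 replicate 2 gave 3, of which DBF4 and POLE2 were among the 6 and GINS4 was not.

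The GC content of the exons moved with this difference. Across the 56 genes the Spearman correlation between GC content and the log2 difference of sh-MIR100HG-2 from sh-MIR100HG-1 was 0.54, and 0.35 across all 15372 genes, both in the same libraries. The 26 genes under 45% GC had a median difference of -0.28 and the 30 others one of 0.00. The same slope was present between the 2 controls: the correlation of GC content with sh-TRC replicate 2 minus replicate 1 was 0.57 across the 56 genes and 0.42 across all. All 6 genes that were lower with sh-MIR100HG-2 were also lower in sh-TRC replicate 2 than in replicate 1, as were 23 of the 56. For DBF4 the difference between the controls was -0.73 and for MCM8 also -0.73, for CLSPN -0.61, for ORC3 -0.47, for POLE2 -0.45 and for POLE -0.18.

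When the GC trend of each sample was removed by offsets in the same edgeR fit, an alternative chosen after the data were seen, the median of the set between the shRNAs went from -0.11 to -0.05. DBF4 was then at -0.60, MCM8 at -0.61, CLSPN at -0.59, ORC3 at -0.54, POLE2 at -0.45 and POLE at -0.66. All but POLE2 kept an unadjusted p under 0.05 (5 of 56, 8.93%, against 4.49% of all genes), and POLE became the gene with the largest difference. With the offsets GINS1 and GINS4 stayed at -1.09 and -1.12 for the knockdown, and CDC6, GMNN and FEN1 at 0.59, 0.58 and 0.54.

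**Figure D5:**
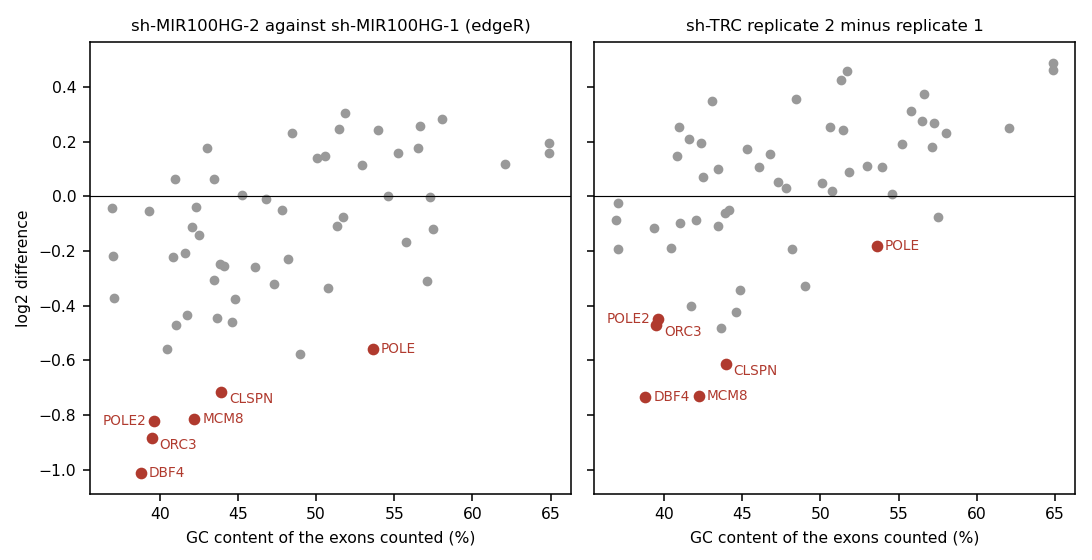
Log2 difference of each of the 56 genes against the GC content of its exons in percent, between the shRNAs (left) and between the 2 controls (right). The 6 named genes (red) were picked by a p under 0.05 between the shRNAs. All 6 are below 0 in both panels, as 23 of the 56 are in the right one.

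Genes around this set, taken from lists by function, gave the surroundings. Of 17 further genes of origin control, 14 had a log2FC above 0 after knockdown and 3 below, 4 of them higher at an unadjusted p under 0.05 (against 3.23% of all genes) and none lower (against 4.44%), with a median of 0.15. SKP2, the F-box protein that sends CDT1 and p27 for degradation, had 19.1 and 28.9 CPM in the controls and 54.2, 60.2, 61.0 and 56.9 after knockdown, with a log2FC of 1.28 (SE 0.23) and an adjusted p of 0.381 (edgeR). CCNF, cyclin F, which directs the degradation of CDC6 and RRM2 late in the cycle, had 30.8 and 47.9 CPM in the controls and between 56.01 and 83.9 after knockdown (log2FC 0.79, SE 0.26). The others were DTL (log2FC 0.42, SE 0.17) and CUL4A (0.49, SE 0.20), parts of the ligase that removes CDT1 in S phase, named after their values were seen. Of the 17 genes, 4 lay above both controls in every knockdown sample, against 8.4% of all genes. They were these same 4, which is no further support, because the p of this same comparison picked them.

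Of 20 further fork genes, 9 were above 0 and 11 below, with none under that p (median -0.07). DNA2, a nuclease-helicase of flap processing, was at 0.50 (SE 0.25) and the E3 ligase TRAIP at -0.40 (SE 0.22). The 20 mitotic genes had 5 above 0 and 15 below (median -0.19), again with none under that p, and CENPE had the lowest value at -1.24 (SE 0.66). It had 113 and 33.9 CPM in the controls, 60.5 and 20.7 with sh-MIR100HG-1 and 39.6 and 8.53 with sh-MIR100HG-2, so the replicates of each group differed widely. CDC20, the activator of the anaphase-promoting complex, was at -0.35 (SE 0.23). Of 9 further chromatin replication genes 5 were above 0 and 4 below (median 0.03). The acetyltransferase HAT1 was at 0.40 (SE 0.30) and the heterochromatin protein CBX5 at 0.23 (SE 0.18).

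Nucleotide supply outside the set was mixed. Of 16 genes of deoxynucleotide supply 2 were lower at an unadjusted p under 0.05 (against 4.44% of all genes) and none higher (against 3.23%), with a median of 0.04. These were DTYMK, the kinase that turns dTMP into dTDP, and the dCMP deaminase DCTD, which feeds thymidylate synthase. DTYMK had 61.2 and 84.7 CPM in the controls and 54.7, 33.4, 54.4 and 38.9 after knockdown (log2FC -0.69, SE 0.26, adjusted p = 0.615, edgeR). DCTD had 122 and 133 CPM in the controls and 66.5, 99.3, 70.5 and 104 after knockdown (log2FC -0.59, SE 0.24, adjusted p = 0.639, edgeR). Of the 16 genes, 2 lay below both controls in every knockdown sample, against 9.08% of all genes. They were DTYMK and DCTD, which is no further support, because the p of this same comparison picked them.

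Of 12 genes of purine synthesis 9 were above 0 and 3 below (median 0.15), and PRPS1, which makes the ribose phosphate donor PRPP, was the 1 under that p, on the higher side (against 3.23% of all genes). It had 79.9 and 85.1 CPM in the controls and between 106 and 144 after knockdown (log2FC 0.57, SE 0.21, adjusted p = 0.596, edgeR). The first enzyme of the purine pathway, PPAT, was at 0.35 (SE 0.20). The 5 genes of pyrimidine synthesis had 2 above 0 and 3 below (median -0.04), with CTPS1 at 0.23 (SE 0.20) and UMPS at -0.45 (SE 0.47).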

How the data were processed

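The counts were deposited by the authors as 1 table of whole-number reads per gene, not normalized. Barcodes had been trimmed, reads aligned with STAR 2.5.2a (version per the submitters' processing notes) to GRCh37 and exon reads summed per GENCODE gene with FeatureCounts. The strand setting and the treatment of reads that fit several places are not given in the sources used here.

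Of 27745 genes, 12373 were removed (under 5 counts in 3 or more samples) and 15372 tested. edgeR 4.0.16 (R 4.3.3) fitted all 3 groups with TMM normalization, and its quasi-likelihood test gave p-values, with Benjamini-Hochberg adjustment across the 15372 genes and called at 0.05. Library totals, 43804736 to 64588388 counts, set the counting error: the gene of the set with the fewest reads, GINS3, had 425.5 on average. The biological coefficient of variation was 27.8%, so spread between samples and not depth limits the precision. Levels per kb use the summed length of annotated exons.

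The members and the gene lists were chosen with earlier results of these data known. Named genes were, in each comparison, the 4 higher and the 4 lower members with the smallest unadjusted p, 8 landmark genes (CDC6, CDT1, GMNN, MCM2, PCNA, RRM2, TYMS and TK1), the lowest and the highest member of each role and, in each list outside the set, the 2 genes with the smallest unadjusted p for the knockdown. Alternatives were DESeq2 1.42.0, edgeR's likelihood ratio test, other normalizations, no filter, a replicate block, only the samples of a comparison, leaving out each sample and, chosen after the data were seen, GC offsets. The code was tested on simulated data.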

Additional observations from a re-analysis of the deposited data

Results flagged for a closer look

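In POLE, the catalytic subunit of polymerase epsilon, and PRIM1, the catalytic subunit of primase, both sh-MIR100HG-1 samples lay above both controls and both sh-MIR100HG-2 samples below both. POLE had 104 and 91.8 CPM in the controls, 139 and 118 with sh-MIR100HG-1 and 85.1 and 89.3 with sh-MIR100HG-2. PRIM1 had 14.5 and 12.7 CPM in the controls, 15.3 and 18.6 with sh-MIR100HG-1 and 11.2 and 11.7 with sh-MIR100HG-2. The log2 difference of sh-MIR100HG-2 from sh-MIR100HG-1 was -0.56 for POLE (SE 0.21) and -0.56 for PRIM1 (SE 0.25), with adjusted p of 0.509 and 0.535 in edgeR's test of that difference, which neither passed. With GC offsets the values were -0.66 and -0.24. This pattern was present in 2 of the 56 genes (3.57%) and in 299 of all 15372 (1.95%).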

How the results depend on the processing

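The set's medians and counts kept their size under most alternatives. Members called at an adjusted p of 0.05, 0 in edgeR's quasi-likelihood test, were 2 for the knockdown without the filter on low counts, with the likelihood ratio test and with DESeq2, 2, 1 and 2 for sh-MIR100HG-2, and 1 without the filter between the shRNAs. Over all genes the calls, in the same order of alternatives, were 392, 109 and 129 for the knockdown, 227, 34 and 65 with the sh-MIR100HG-1 shRNA, 517, 121 and 165 with sh-MIR100HG-2, and 679, 91 and 103 between the shRNAs, where fitting only those 4 samples gave 7. The target, MIR100HG, was past the threshold at -1.86 without the filter, at -1.86 with the likelihood ratio test and at -1.84 with DESeq2. The cause of these differences was not tested. With GC offsets, chosen after the data were seen, the sh-MIR100HG-2 median of the set was 0.0309.

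CDT1, at -0.00, had the opposite sign with RLE size factors (0.0177), DESeq2 (0.0177), a replicate block (0.0127), only the samples of the comparison (0.00067) and GC offsets (0.19). It did so too without sh-TRC replicate 2 (0.26), sh-MIR100HG-1 replicate 2 (0.01) or sh-MIR100HG-2 replicate 1 (0.09), as did MCM2 without sh-TRC replicate 1 (-0.000113) and TYMS without sh-TRC replicate 2 (0.0409). With 1 sample left out, CDT1 ranged from -0.23 to 0.26, MCM2 from -0.000113 to 0.37 and TYMS from -0.46 to 0.0409. Leaving out 1 sample at a time gave 0 called members in every comparison. Members at an unadjusted p under 0.05 numbered 2 to 5 for the knockdown, 3 to 7 with the sh-MIR100HG-1 shRNA, 2 to 3 with sh-MIR100HG-2 and 0 to 6 between the shRNAs, and all-gene calls 0, 0 to 3, 0 to 4 and 0 to 7. The medians of the set ran from 0.03 to 0.12, 0.0453 to 0.19, -0.0701 to 0.10 and -0.17 to -0.05, and MIR100HG from -2.08 to -1.60. Upper-quartile scaling moved the knockdown median of all genes from -0.04 to -0.10.

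The labels link replicates of different groups only by number and do not say whether same-numbered samples were prepared together. Deviations of same-numbered samples correlated at -0.21 (sh-TRC and sh-MIR100HG-1), 0.02 (sh-TRC and sh-MIR100HG-2) and 0.50 (the 2 shRNA groups). What same-numbered samples of the shRNA groups have in common was not tested. With the replicate block 0 members were called, and 5, 8, 4 and 6 were under an unadjusted p of 0.05 in the 4 comparisons, with medians of 0.08, 0.13, -0.07 and -0.13 and MIR100HG at -1.88. With 3 residual degrees of freedom, the spread between replicates and not the read depth set the precision.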

Other observations

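Between the shRNAs, the mitotic genes outside the set were also lower with sh-MIR100HG-2. Of 20, 7 were lower at an unadjusted p under 0.05 in edgeR's test (against 6.12% of all genes) and none higher (against 3.34%). Their median was -0.35, and none passed the adjusted p. Over all genes the difference between the shRNAs correlated with GC content (Spearman 0.35), and the part of GC content in the mitotic genes was not tested. In sh-MIR100HG-2 against the control their median was -0.30, against -0.04 over all genes, with 3 lower at that p (against 5.15%). The ratio of FEN1 to LIG1 in CPM per kb was 6.41 and 5.69 in the controls, 6.64 and 13.8 with sh-MIR100HG-1 and 8.97 and 14.6 with sh-MIR100HG-2, so all 4 knockdown samples were above both controls. The ratio of FEN1 to PCNA, 0.668 and 0.603 in the controls, lay between 0.775 and 0.870 after knockdown. Both ratios were chosen after the values were seen and were not tested.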
